A study of Mus musculus with 4 samples.

Results

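Adenylyl cyclases are the enzymes that make cyclic AMP from ATP, and their transcripts were followed here in mouse cerebral cortex at embryonic day 15. The members were chosen by gene symbol, as every row of the deposited count table whose symbol is Adcy followed by a number. The pattern found 10 genes among the 13289 in the table: the 9 transmembrane enzymes Adcy1 to Adcy9 and the soluble enzyme Adcy10. No measured difference entered that rule, but a gene had to have enough reads to be in the table, and the family was singled out with earlier results of these data known. Its adjusted p-values therefore describe the fit and are not independent evidence. The study compared 2 control libraries, titled WT, with 2 Lhx2 cKO libraries, from polyadenylated RNA of cerebral cortex (fresh brain). The abbreviation cKO is taken here to mean a conditional knockout, and Lhx2 encodes a LIM-homeodomain transcription factor of cortical progenitors. The Cre driver, the allele, the strain, the sex and the number of embryos per library are not given in the sources used here. Nothing in the labels says that replicates came from separate animals, so the p-values measure the spread between these libraries, which may be technical.

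Each transmembrane adenylyl cyclase is stimulated by the G protein alpha subunit Gs, which a receptor for a hormone or transmitter activates, and the isoforms differ in what else acts on them. Adcy1, Adcy3 and Adcy8 are stimulated by calcium and calmodulin, Adcy2, Adcy4 and Adcy7 by G protein beta-gamma subunits acting together with Gs, and Adcy5 and Adcy6 are inhibited by calcium and by Gi. Cyclic AMP activates protein kinase A, Epac exchange factors and cyclic nucleotide-gated channels, and phosphodiesterases degrade it. In the developing cortex it is known for roles in axon growth, in neuronal migration and in the activity of the transcription factor CREB.

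Total counts ranged from 22294237 to 24609627 per library, and 3 counts, taken as the floor of detection, corresponded to 0.12 to 0.132 CPM, the count of a gene scaled to the size of its library. Library sizes were adjusted with TMM, a factor that corrects totals for composition. Between 10.02% and 12.85% of reads were mitochondrial. Lhx2, the gene targeted, was at 316 and 287 CPM in control and at 239 and 247 CPM in Lhx2 cKO, which is -0.31 on the log2 scale (SE 0.098, edgeR quasi-likelihood adjusted p 0.0191), so its transcript was reduced and not absent. Markers of cortical neurons (12 of 12 listed) and of intermediate progenitors (10 of 10) were in the table, each with reads in every library.

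Of the 10 adenylyl cyclases, 4 passed an adjusted p of 0.05 in the edgeR test over all genes, against 20.8% of all 13288 genes tested. Adcy2, Adcy8 and Adcy1 rose in Lhx2 cKO (11.6% of all genes did) and Adcy6 fell (9.17% of all genes did). The other 6 members did not pass. The count of 4 fell to 2 without control 1 and to 1 without Lhx2 cKO 2, where the genes called in all also fell, from 2758 to 1788 and 1632. For 6 of the 10 members all libraries of one group lay above all of the other, against 59.3% of all genes, so in that respect the family was near the background. The median log2 fold change of the 10 members was 0.28, against 0.003 over all genes. For Adcy1 to Adcy9 alone it was 0.24, and it was 0.15 without control 1, 0.02 without control 2 and 0.11 at a mean count of at least 50. The authors' deposited table has the same 4 members under an adjusted p of 0.05, with log2 fold changes of 2.51 for Adcy2, 1.59 for Adcy8, 0.33 for Adcy1 and -0.27 for Adcy6, and marks Adcy2 and Adcy8 as up.

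**Figure D1:**
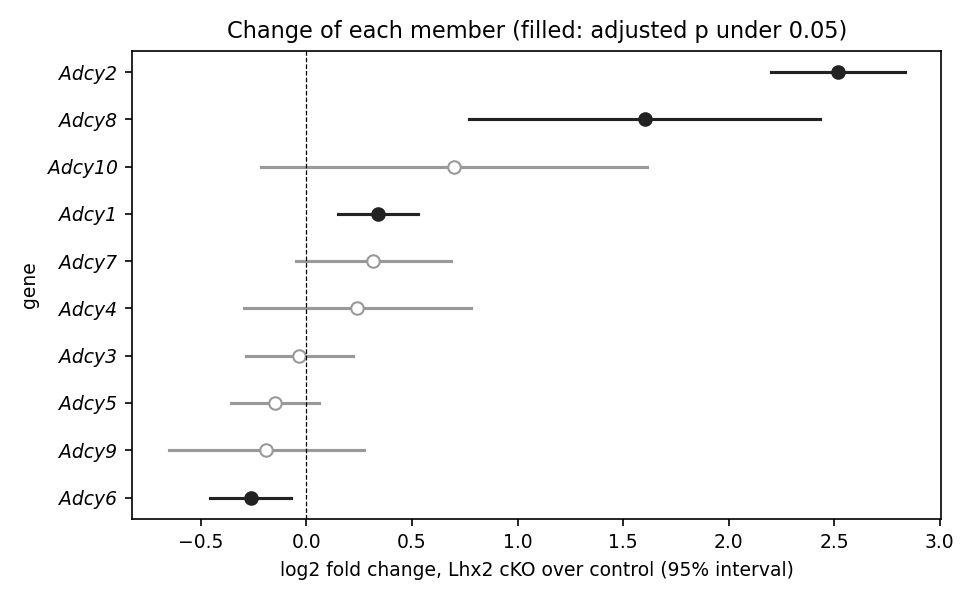
Log2 fold change of each adenylyl cyclase gene (y axis) in Lhx2 cKO over control (x axis), with 95% intervals from the edgeR fit. Filled points passed an adjusted p of 0.05: Adcy2 at 2.52 stands apart from the other members, Adcy8 at 1.60 has a wide interval, and Adcy1 at 0.34 and Adcy6 at -0.26 lie near 0.

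To compare levels between genes, counts were divided by gene length and scaled to TPM, which sums to the same total in every library, over the genes of the table. On that scale Adcy6 was the most abundant member in control, at 82.6 and 81.2 TPM. Adcy1 followed with 31.7 and 34.6 TPM and Adcy5 with 33.0 and 29.2 TPM, and these neighbours overlapped. Adcy3 was at 11.1 and 12.7 TPM. Adcy2, Adcy7 and Adcy9 lay between 3.24 and 5.38 TPM and each overlapped the next in that order. Adcy4 was at 3.03 and 2.35 TPM, and Adcy8 and Adcy10 were at the bottom, between 0.327 and 0.462 TPM, without separation from each other. In Lhx2 cKO the order was the same but for Adcy2, which moved from the fifth to the fourth place. There, at 23.0 and 27.0 TPM, it overlapped Adcy5 at 28.6 and 25.3 TPM and was clear of Adcy3 at 11.7 and 10.6 TPM.

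**Figure D2:**
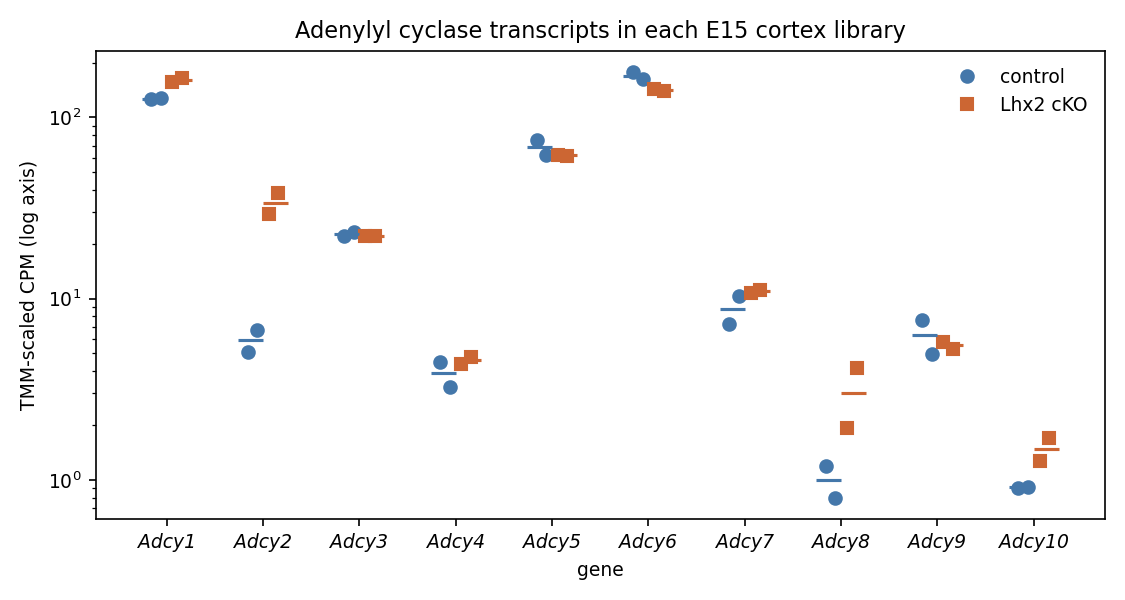
CPM scaled with TMM (y axis, log scale) of the 10 adenylyl cyclase genes (x axis) in each library; circles are control, squares are Lhx2 cKO, and short lines are group means. Adcy2 goes from 5.11 and 6.68 CPM to 29.4 and 38.2 CPM, while Adcy3, Adcy4, Adcy5 and Adcy9 overlap between groups.

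Because the targeted gene encodes a DNA-binding protein, the promoters of the members were read for short motifs. RefSeq promoters of build GRCm38.p6 matched 8 of the 10 members, with 11 windows, and the 250 bases before each start were searched on both strands. The windows of Adcy2 and Adcy1, the called members that had one, are shown 5′ to 3′ on the strand of the gene, at chr13:68999542-68999791 (minus strand) and chr11:7063183-7063432 (plus strand), with GC boxes (GGGCGG or its complement CCGCCC) in capitals.
Adcy2: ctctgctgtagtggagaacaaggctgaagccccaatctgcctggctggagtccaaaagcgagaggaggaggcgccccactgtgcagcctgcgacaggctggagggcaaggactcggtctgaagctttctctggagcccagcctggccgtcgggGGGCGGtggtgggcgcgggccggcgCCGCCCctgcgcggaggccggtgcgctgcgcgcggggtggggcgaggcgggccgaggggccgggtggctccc
Adcy1: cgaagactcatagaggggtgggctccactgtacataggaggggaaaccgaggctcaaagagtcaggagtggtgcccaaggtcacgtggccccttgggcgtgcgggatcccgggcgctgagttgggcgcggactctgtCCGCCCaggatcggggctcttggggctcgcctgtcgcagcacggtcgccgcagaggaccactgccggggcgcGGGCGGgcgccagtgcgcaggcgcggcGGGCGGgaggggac

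Adcy2 had 2 GC boxes and 23 CpG dinucleotides in its window, and Adcy1 had 3 and 26. Their GC content was 73.2% and 71.2%, against a median of 52.4% over all windows. A GC box was in 6 of the 11 windows of the family, against 32.7% of all 32851 windows. The homeodomain core TAATTA, a motif of the class to which LHX2 belongs, was in 0 of the 11 windows, against 4.84% of all windows. The cyclic AMP response element TGACGTCA was also in 0 of 11 (1.55% of all), and its core TGACG, which the full element contains, was in 2 of 11, those of Adcy7 and Adcy9 (17.8% of all). These matches describe letters in short windows and say nothing on binding.

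Among the isoforms stimulated by beta-gamma subunits, Adcy2 showed the largest change of the family. Adcy2 (ENSMUSG00000021536.8), an isoform known from brain, is a protein-coding gene on the minus strand of chromosome 13 at 68620043 to 68999541 in GRCm38. It had 124 and 167 counts in control and 669 and 877 in Lhx2 cKO. Both Lhx2 cKO libraries, at 29.4 and 38.2 CPM, lay far above both control libraries, at 5.11 and 6.68 CPM. The means were 5.9 ± 1.11 CPM in control and 33.8 ± 6.2 CPM in Lhx2 cKO (SD, n = 2), a 5.72-fold rise with a 95% interval of 4.59 to 7.13 (log2 fold change 2.52, SE 0.157, adjusted p 3.94e-16). By p-value Adcy2 ranked 12 among the 13288 genes tested, and by size it was the rise of rank 24. With 1 library left out the log2 fold change ranged from 2.31 to 2.72 and Adcy2 passed the test each time.

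Adcy4 (ENSMUSG00000022220.15), an isoform known from endothelial cells, was at 4.5 and 3.24 CPM in control and 4.35 and 4.79 CPM in Lhx2 cKO, and the groups overlapped. Its log2 fold change was 0.24 with a 95% interval of -0.29 to 0.78 (adjusted p 0.578). It was 0.48 without control 1 and 0.02 without control 2. Adcy7 (ENSMUSG00000031659.14), an isoform known from blood and immune cells, was at 7.22 and 10.4 CPM in control and 10.8 and 11.1 CPM in Lhx2 cKO. The Lhx2 cKO libraries were the higher ones, by little over control 2, and the log2 fold change of 0.32 (95% interval -0.05 to 0.68, adjusted p 0.231) did not pass. Control 1 was the low library for Adcy7: without it the log2 fold change was 0.07, and without control 2 it was 0.61 with an adjusted p of 0.048.

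Microglia and macrophage markers were read beside Adcy7, which was not called. Of 15 listed genes, 12 were called higher and 2 lower, against 11.6% and 9.17% of all genes. The summed level of these markers was 148 CPM in each control library and 290.5 to 315 CPM in Lhx2 cKO, and none had a count of 0 in any library. Of 18 listed endothelial, pericyte and meningeal genes, 16 were in the table, with 6 called higher and 2 lower, beside the same shares of all genes. The sum of the 16 was 372 to 416 CPM in control and 429 to 485 CPM in Lhx2 cKO, beside Adcy4, and none was at 0. The part of these markers in the values of Adcy7 and Adcy4 was not tested, and in bulk tissue more or fewer cells of a type and more or less RNA per cell cannot be told apart.

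For the isoforms stimulated by calcium and calmodulin, Adcy1 and Adcy8 rose and Adcy3 did not pass. Adcy1 (ENSMUSG00000020431.6), a neuronal isoform linked to the formation of sensory maps in the cortex, lies on chromosome 11 at 7063489 to 7178506 (plus strand). It had 3054 and 3192 counts in control and 3560 and 3771 in Lhx2 cKO. Its levels of 126 and 128 CPM in control and 156 and 164 CPM in Lhx2 cKO did not overlap. The rise was 1.26-fold with a 95% interval of 1.11 to 1.44 (log2 fold change 0.34, SE 0.094, adjusted p 0.00733). The call of Adcy1 was lost without control 1 (log2 fold change 0.32, adjusted p 0.0595) and without Lhx2 cKO 2 (0.30, adjusted p 0.0796).

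Adcy8 (ENSMUSG00000022376.9), a neuronal isoform stimulated by calcium entry, lies on chromosome 15 at 64697084 to 64922296 (minus strand). It was near the bottom of the table in abundance, with 29 and 20 counts in control and 44 and 95 in Lhx2 cKO. The libraries were at 1.2 and 0.8 CPM in control and 1.93 and 4.14 CPM in Lhx2 cKO, so the groups did not overlap but the Lhx2 cKO libraries differed widely. The rise was 3.04-fold with a 95% interval of 1.71 to 5.4 (log2 fold change 1.60, SE 0.411, adjusted p 0.0037). It rested in large part on Lhx2 cKO 2, without which the log2 fold change of Adcy8 was 0.95 and the adjusted p 0.29.

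Adcy3 (ENSMUSG00000020654.16), the isoform of primary cilia and of olfactory neurons, was at 22.1 and 23.4 CPM in control and 22.1 and 22.3 CPM in Lhx2 cKO. The groups overlapped, and the log2 fold change of -0.03 had a 95% interval of -0.29 to 0.22 (adjusted p 0.883). Its exons share 1380 bases, 22.1% of their length, with Cenpo on the other strand in GENCODE M21, so the counts of Adcy3 are uncertain. Cenpo itself was at 8.12 and 7.64 CPM in control and 5.49 and 6.22 CPM in Lhx2 cKO and did not pass (adjusted p 0.138). Of 20 listed genes of the primary cilium, 3 were called: Mchr1, a ciliary receptor, was higher, and Tulp3, which brings receptors into cilia, and Kif3a, a motor of ciliary transport, were lower. This was 3 of 20 beside the 20.8% of all genes, and DESeq2 called 0 and limma-voom 4, with 7 at an unadjusted p under 0.05 in edgeR.

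Of the isoforms inhibited by calcium, Adcy6 fell and Adcy5 did not pass. Adcy6 (ENSMUSG00000022994.10), a widely expressed isoform, lies on chromosome 15 at 98589973 to 98610076 (minus strand). It had 4308 and 4058 counts in control and 3256 and 3223 in Lhx2 cKO. At 178 and 162 CPM in control and 143 and 140 CPM in Lhx2 cKO, every Lhx2 cKO library was below every control library. Adcy6 fell to 0.833 of the control level, with a 95% interval of 0.73 to 0.952 (log2 fold change -0.26, SE 0.095, adjusted p 0.0425). The call was close to the threshold: without control 1, Lhx2 cKO 1 or Lhx2 cKO 2 the log2 fold change of Adcy6 was -0.21, -0.28 or -0.25, and the adjusted p was 0.261, 0.104 or 0.181. Adcy6 shares 605 exon bases, 8.92% of its length, with an antisense gene, Gm29331, and Adcy2 shares 189, or 4.49%, with Gm35161. Since the use of strand in counting is not given, reads in those stretches cannot be assigned with certainty.

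Adcy5 (ENSMUSG00000022840.10), the main isoform of the adult striatum, was at 75.3 and 61.7 CPM in control and 62.3 and 61.1 CPM in Lhx2 cKO. Control 1 was the high library, control 2 lay among the Lhx2 cKO libraries, and the log2 fold change of -0.15 (95% interval -0.36 to 0.06, adjusted p 0.332) did not pass. Without control 1 it was -0.01, and without control 2 it was -0.29 with an adjusted p of 0.0877. Of 22 listed genes of striatum and ventral telencephalon, 16 were in the table, 3 called higher (Gad2, Foxp1 and Drd1) and 1 lower (Meis2), so 4 of 16 were called beside the 20.8% of all genes. Their summed level was 686 to 742 CPM in control and 648 to 669 CPM in Lhx2 cKO, with none at 0 among the genes in the table. The part of these genes in the level of Adcy5 was not tested.

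Adcy9 (ENSMUSG00000005580.12), the isoform least sensitive to forskolin, was at 7.67 and 4.96 CPM in control and 5.76 and 5.31 CPM in Lhx2 cKO. The control libraries enclosed the Lhx2 cKO libraries, and the log2 fold change was -0.19 with a 95% interval of -0.65 to 0.27 (adjusted p 0.619). Without control 1 it was 0.15. Adcy10 (ENSMUSG00000026567.17), the soluble enzyme that responds to bicarbonate and calcium and not to G proteins, was near the limit of the table with 22 and 23 counts in control and 29 and 39 in Lhx2 cKO. Its levels of 0.907 and 0.92 CPM in control and 1.27 and 1.7 CPM in Lhx2 cKO did not overlap, but at this depth the log2 fold change of 0.70 had a 95% interval of -0.22 to 1.61 and did not pass (adjusted p 0.298).

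Summed over the 10 members, the family was at 428 and 402 CPM in control and 438 and 453 CPM in Lhx2 cKO, a ratio of means of 1.07. Per length the sum was 174 and 175 TPM in control and 187 and 177 TPM in Lhx2 cKO, a ratio of 1.04. With 2 libraries against 2 an exact permutation test of a single value cannot go below a two-sided p of 0.333, so the total was not tested. Leaving out Adcy10 gave the same ratios. Without Adcy2 the sum of the other 9 members was 170.3 and 169 TPM in control and 164 and 149.6 TPM in Lhx2 cKO, a ratio of 0.924. In CPM the same sum was 422 and 396 in the control libraries against 408 and 415 in Lhx2 cKO, with means of 409 and 412 CPM, and the groups overlapped. The total thus differed little between the groups while its make-up differed more.

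Adcy2 made up 2.2% and 3.08% of the family's TPM in control and 12.3% and 15.3% in Lhx2 cKO. Adcy1 went from 18.2% and 19.8% to 22.0% and 22.1%. Adcy6 went from 47.4% and 46.5% to 37.1% and 34.9%. These 3 shares did not overlap between groups, but neither did those of Adcy3, Adcy5, Adcy8 and Adcy10, so this did not set the 3 apart. Shares of one total depend on each other, so a larger share for Adcy2 makes the sum of the other shares smaller by construction. Adcy5, which was not called, went from 19.0% and 16.7% to 15.3% and 14.3%. The shares of Adcy4, Adcy7 and Adcy9 overlapped. By class, the isoforms stimulated by beta-gamma subunits took 5.88% and 7.43% of the family in control and 16.8% and 19.8% in Lhx2 cKO. The isoforms stimulated by calcium took 24.9% and 27.3% against 28.6% and 29.0%, and the isoforms inhibited by calcium took 66.4% and 63.2% against 52.4% and 49.2%. Within a library, the ratio of Adcy1 to Adcy6 in TPM was 0.384 and 0.426 in the control libraries against 0.592 and 0.634 in Lhx2 cKO. The ratio of Adcy5 to Adcy6 was 0.4 and 0.359 in control and 0.411 in each Lhx2 cKO library.

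**Figure D3:**
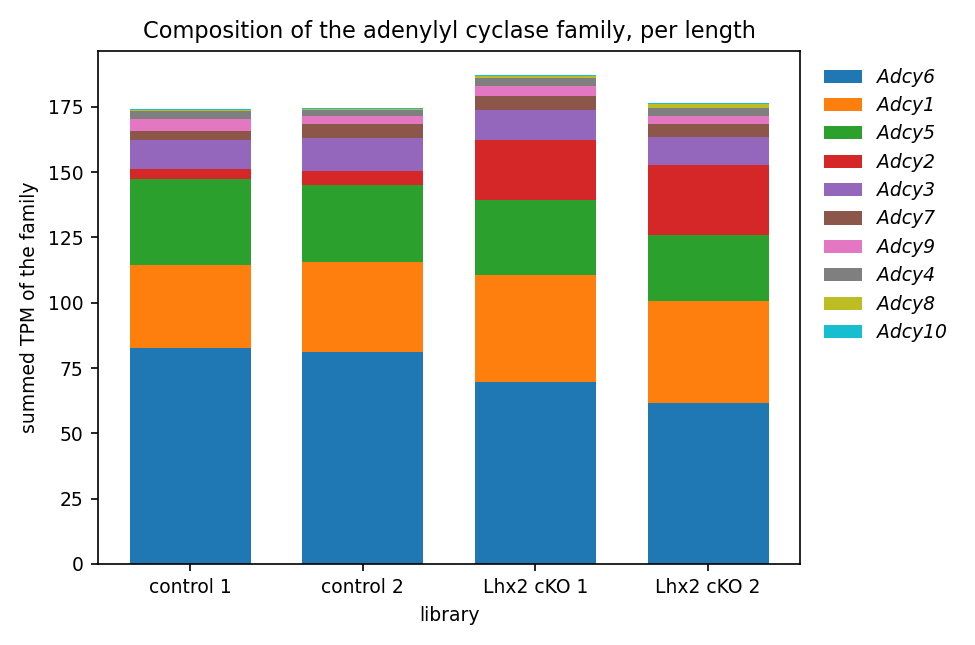
Summed TPM of the adenylyl cyclase family (y axis) in each library (x axis), stacked by gene. The height stays between 174 and 187 TPM, while the band of Adcy2 widens from 3.83 and 5.38 TPM in control to 23.0 and 27.0 TPM in Lhx2 cKO and the band of Adcy6 narrows.

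The rest of the pathway was read from 13 lists covering the steps before and after the cyclases. Of their 166 genes in the table beside the Adcy genes, 47 were called, 35 higher and 12 lower, or 28.3% against 20.8% of all genes, with a median log2 fold change of 0.07. Without control 1 or without Lhx2 cKO 2 the count was 27. The lists were written with earlier results of these data known, and their counts are descriptions.

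For ligands and receptors that act through Gs, of 33 listed genes, 16 were in the table and 7 were called, each of them higher. This was 43.8%, against 11.6% of all genes called higher. Adcyap1, the neuropeptide PACAP, rose from 3.75 and 4.48 CPM to 16.4 and 17.6 CPM (log2 fold change 2.04, adjusted p 1.05e-11). Its receptor Adcyap1r1, one of the most abundant genes of the list, rose from 177 and 181 CPM to 205 and 236 CPM (0.30, adjusted p 0.0206). Gpr12, a receptor active without ligand, rose by 1.02, the corticotropin-releasing hormone receptor Crhr1 by 0.68 and the dopamine receptor Drd1 by 0.73 on the log2 scale. Gipr, the other abundant gene of the list, was at 375 and 377 CPM in control and 368 and 345 CPM in Lhx2 cKO and did not pass (adjusted p 0.641).

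For receptors listed as acting through Gi, which lowers cyclic AMP, 24 of 45 were in the table, with 9 called higher and 2 lower. This was 45.8% called, against 20.8% of all genes. The higher ones include Ackr3, an atypical chemokine receptor for which coupling to Gi is not settled. The lysophosphatidic acid receptor Lpar1 had the largest change, a log2 fold change of -3.72 (adjusted p 5.93e-21), from 33.6 and 36.3 CPM to 2.72 and 2.57 CPM. Sstr2, the somatostatin receptor, also fell (-0.27), while Cx3cr1, a microglial receptor, rose by 0.96, the adrenergic receptor Adra2c by 0.75 and the GABA-B subunit Gabbr2 by 0.65 on the log2 scale. Gabbr1, the partner of Gabbr2, was at 535 and 539.7 CPM in control and 597 and 657 CPM in Lhx2 cKO and did not pass (adjusted p 0.132).

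Among the G proteins, Gnal, the stimulatory alpha subunit that couples receptors to Adcy5 in striatum and to Adcy3 in olfactory neurons, rose from 46.4 and 49.4 CPM to 90.1 and 97.6 CPM (log2 fold change 0.97, adjusted p 5.13e-10). Gnai1, an inhibitory subunit, rose by 0.32 (adjusted p 0.0244). The other 5 of the 7 alpha subunits did not pass, among them the abundant Gnao1 and Gnai2, and Gnas, which encodes the alpha subunit Gs. Gnas was at 49.4 and 49.6 CPM in control and 42.7 and 50.3 CPM in Lhx2 cKO (log2 fold change -0.09, adjusted p 0.597). Of 12 beta and gamma subunits in the table only Gnb5 was called (log2 fold change 0.41, adjusted p 0.0434), while the most abundant, Gnb2 and Gnb1, had adjusted p of 0.796 and 0.935. The list of calmodulin, proteins that bind it and regulators of cyclases had 12 genes in the table. Of these, Cap2, a cyclase-associated protein, fell by 1.19 and Pcp4, a small protein that binds calmodulin, fell by 0.62 on the log2 scale. The called share was 28.6% for alpha subunits, 8.33% for beta and gamma subunits and 16.7% for the calmodulin list, against 20.8% of all genes. The exons of Gnal, Gnb5 and Pcp4 overlap other genes by 7.63%, 7.96% and 23.7% of their length, and their values are uncertain to that extent. Those of Gnas overlap Gm20721 by 13.1% and Nespas by 8.83%, so its value is uncertain too.

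For the enzymes and channels downstream of the cyclases, of 13 phosphodiesterases only Pde3a, which cyclic GMP inhibits, was called. Pde3a was at 3.3 and 2.6 CPM in control and 10.5 and 12.6 CPM in Lhx2 cKO (log2 fold change 1.97, adjusted p 2.35e-09). The called share of the list was 7.69%, against 20.8% of all genes. The abundant Pde1b and Pde7a did not pass (adjusted p 0.864 and 0.142). For protein kinase A, the catalytic subunit Prkacb rose by 0.40 and the regulatory subunit Prkar1b by 0.38 on the log2 scale, and the other 6 of 8 genes did not pass, among them Prkar1a and Prkar2b, the most abundant of the list. Of 11 anchoring proteins only Akap9, which holds the kinase at the centrosome and Golgi, was called, and it fell by 0.38. In the group of Epac factors and channels, Rapgef4, the Epac of neurons, rose by 1.15 and the pacemaker channel Hcn4 by 0.67, of 8 genes in the table. The called share was 25.0% for protein kinase A, 9.09% for anchoring proteins and 25.0% for Epac factors and channels, beside the same 20.8%.

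In the nucleus, the coactivators Ep300 and Crebbp fell by 0.36 and 0.33 and Crtc2 by 0.30 on the log2 scale, while Creb3 rose by 0.27 at the threshold (adjusted p 0.0499), of 12 genes of the CREB family and its coactivators. Called genes made up 33.3% of that list, against 20.8% of all genes. Of genes known as targets of CREB, 9 were called higher and 2 lower of 17 in the table. This was 64.7%, against the same 20.8% of all genes. Fos rose from 37.2 and 38.5 CPM to 83.5 and 79.4 CPM (log2 fold change 1.10, adjusted p 2.09e-11), Junb rose by 0.85 and the neuropeptide gene Sst by 1.07. Gem, a small GTPase, went the other way, from 5.69 and 6.84 CPM to 1.32 and 1.57 CPM (-2.11, adjusted p 5.24e-07). Several of these targets are also induced by other signals, such as calcium and growth factors. The list of guanylyl cyclases, the enzymes for cyclic GMP, had 9 genes in the table. These included Adcy10 and the clearance receptor Npr3, which are not guanylyl cyclases. Of the 9 genes, 0 were called by edgeR, which called 20.8% of all genes, and 0 by DESeq2 or by limma-voom. In edgeR 2 had an unadjusted p under 0.05, Npr3 and Gucy1b1. Npr2, the most abundant gene of the list, was at 138 and 144 CPM in control and 144 and 141 CPM in Lhx2 cKO, and Gucy1b1 had an adjusted p of 0.107. Whether the cyclase families differ in their response was not tested. Single other genes share 5.05% to 8.95% of the exon length of Pde3a, Prkar1b, Rapgef4, Junb and Npr2, and Creb3 shares 15.2% with Tln1 and 5.61% with Gba2, so these values are uncertain.

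**Figure D4:**
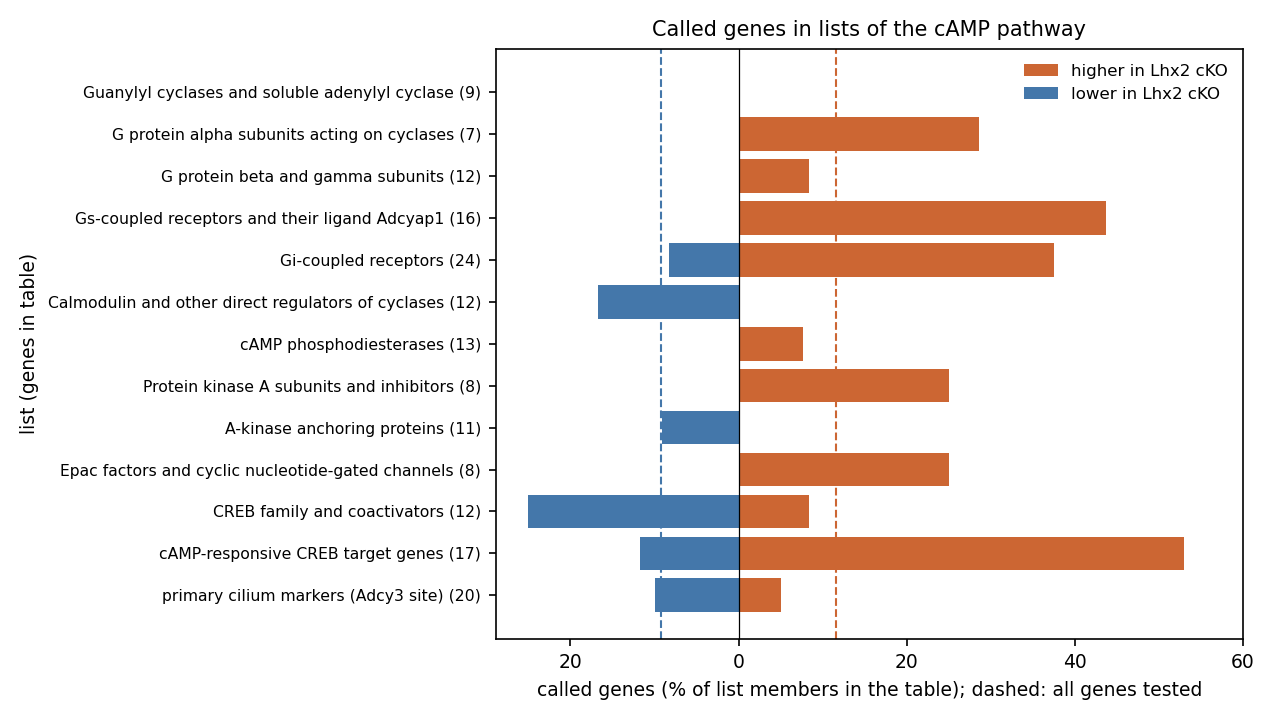
Share of list members in the table that were called higher (right) or lower (left) in Lhx2 cKO, for 13 lists of the cyclic AMP pathway (y axis, number of genes in the table in parentheses); the dashed lines mark 11.6% higher and 9.17% lower among all genes tested. Gs-coupled and Gi-coupled receptors, alpha subunits, protein kinase A, Epac factors and channels, and CREB target genes lie above the line for higher genes, and the other 7 lists do not. Alpha subunits, protein kinase A, and Epac factors and channels have only 2 genes called higher each. Beyond the line for lower genes lie the CREB family and coactivators, calmodulin and other regulators, CREB target genes and primary cilium markers.

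Marker lists of other cell types were read beside the 11.6% of all genes called higher and the 9.17% called lower. Cell cycle markers were called lower in 13 of 14 genes, with a summed level of 497 to 559 CPM in control and 329 to 333 CPM in Lhx2 cKO, and intermediate progenitor markers in 7 of 10, with 1181 to 1200 CPM against 765 to 772 CPM. Pan-neuronal markers had 3 genes called higher and 2 lower of 12, with 7084 to 7415 CPM against 7808 to 8081 CPM. Astrocyte markers were called higher in 6 of 8 genes in the table and lower in 1, with 225 to 265 CPM against 359 to 386 CPM, and oligodendrocyte precursor markers higher in 5 of 7, with 56.9 to 64.0 CPM against 98.7 to 105 CPM. Pan radial glia markers were called lower in 6 of 12 genes and higher in 1, with 934 to 979 CPM against 845 to 876 CPM. Cajal-Retzius markers were called higher in 4 of 8 and lower in 1, with 356 to 396 CPM against 483 to 615 CPM. Red blood cell markers were called lower in 5 of 8 and higher in 1, with 2359 to 3200 CPM against 1921 to 2154 CPM. Of the markers of these lists that were in the table, 0 had a count of 0 in any library. The part of such shifts in the levels of Adcy2, Adcy1, Adcy8 and Adcy6 was not tested.

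The genes whose profile over the 4 libraries was closest to that of Adcy2, by Euclidean distance between log2 CPM profiles centred on their own mean, were Dhrs3, a reductase of retinaldehyde, at a distance of 0.176, Bst2 at 0.305 and Ddx60 at 0.382, both known as interferon-induced genes. Dhrs3 went from 10.5 and 12.1 CPM in control to 58.8 and 66.7 CPM in Lhx2 cKO. For Adcy8 the closest were Fndc1 at 0.162, Parp9 at 0.295 and Nrsn2 at 0.31, which shared with it a higher level in Lhx2 cKO 2 than in Lhx2 cKO 1. With 4 libraries in 2 groups, genes with a like difference between the groups are near each other by construction.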

How the data were processed

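RNA-seq of polyadenylated RNA from E15 mouse cortex was analysed in 2 control and 2 Lhx2 cKO libraries, grouped by their titles. The library columns hold the deposited raw counts of reads for each gene. The submitters' processing notes name Trim Galore, Subread, featureCounts, edgeR and build mm39; annotation, versions and strand are not given in the sources used here. Per the file headers, the table also holds the authors' log2 fold change, log2 mean CPM, p-value, adjusted p-value and its -log10, and a gene length, deposited without its source.

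Counts were tested with edgeR 4.0.16 in R 4.3.3 (TMM, filterByExpr with a minimum of 10 counts, quasi-likelihood test without covariates, two-sided, Benjamini-Hochberg over 13288 genes). A gene with an adjusted p under 0.05 is called. SEs are the absolute log2 fold change over the square root of F, and 95% intervals use the same fit. The common biological coefficient of variation was 8.27%. Replicates were not one library deposited again (chi-square over its degrees of freedom 13.9 and 14.3). TPM used the deposited lengths. Floors cover counting error only.

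Members and lists were chosen with earlier results of these data known. Named were all members, in each list the called genes of lowest p (at most 4), the 2 most abundant genes per length of the lists of receptors, G proteins, phosphodiesterases, kinase A and guanylyl cyclases, and 3 genes most like each of the 2 members with the largest called change, at a mean of at least 2 CPM and without provisional names. Gnas was named outside this rule, as the gene of the alpha subunit Gs. Alternatives were RLE factors, library totals, no filter, a mean count of at least 50, DESeq2 1.42.0, limma-voom (limma 3.58.1), a replicate block, an adjusted p under 0.01 and leaving out each library. Gene overlaps came from GENCODE M21 (GRCm38); no coordinates were converted.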

Additional observations from a re-analysis of the deposited data

How the results depend on the processing

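With all 4 libraries, each of the 4 called members kept its direction and its call under RLE factors, library totals, no low-count filter, the replicate block, DESeq2 and limma-voom. With a mean count of at least 50 Adcy8 and Adcy10 were not tested and the other 3 called members kept their calls. The adjusted p of Adcy6, the closest to the threshold, ranged from 0.0313 to 0.0482, and its log2 fold change from -0.271 to -0.256. At an adjusted p under 0.01 Adcy6 (-0.263) was no longer called. That stricter threshold gave 1697 called genes in place of 2758, and 29 called pathway genes in place of 47, fewer by construction. Differences between same-group libraries had a correlation of -0.00515 across genes. With a single difference per group, this cannot show whether the replicate numbers mark a litter, day or batch. With the replicate block the log2 fold change of Adcy2 was 2.518, 4 members were called, and 2874 genes were called in place of 2758.

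Leaving out 1 library leaves 3, and the lone library is assumed to vary like the other group; calls in these fits were added after seeing the data. They gave 1 to 5 called members, 1632 to 2396 called genes and 27 to 42 called pathway genes. Log2 fold changes ranged from 0.299 to 0.372 for Adcy1, from 2.312 to 2.723 for Adcy2, from -0.326 to -0.208 for Adcy6 and from 0.95 to 2.048 for Adcy8. For members not called with all libraries, they ranged from -0.09 to 0.01 for Adcy3, 0.024 to 0.483 for Adcy4 and -0.286 to -0.013 for Adcy5. They ranged from 0.065 to 0.605 for Adcy7, -0.471 to 0.145 for Adcy9 and 0.474 to 0.89 for Adcy10. With all 4 libraries, DESeq2 called 33 pathway genes, against 47 in edgeR. Over the whole table DESeq2 also called fewer genes, 2170 against 2758 in edgeR. It called 5 of the Gs-coupled receptors and their ligand (edgeR 7) and 8 of the Gi-coupled receptors (edgeR 9 higher and 2 lower). It called 2 of the CREB family and coactivators (edgeR 4), 0 of the cilium genes (edgeR 3) and 0 of the beta and gamma subunits (edgeR 1, with 3 at an unadjusted p under 0.05). For the alpha subunits, and for the list of calmodulin and cyclase regulators, it called 1 each (edgeR 2 each). The cause of these differences was not tested. Depth limits Adcy8 and Adcy10, with 20 to 95 counts per library. Shares of the family in CPM in place of TPM changed by 6.144 points for Adcy2, 5.389 for Adcy1 and -9.125 for Adcy6, against 11.141, 3.028 and -10.972 per length.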
